A study of Mus musculus with 12 samples.

Results

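The hippocampus of MRL/lpr mice was compared with that of MRL/+ mice to ask which genes, pathways and cell types differ between a lupus-prone strain and the strain it comes from. The members were chosen by the strain in the sample labels, and they are 8 of the 12 samples of the series: 4 labelled MRL/lpr and 4 labelled MRL/MpJ, which are called MRL/+ below. Every mouse was an untreated female of about 12 weeks, in diestrus at sacrifice, and each sample was the hippocampal RNA of 1 mouse. MRL/lpr mice carry the lpr mutation, an insertion of a transposable element into an intron of *Fas*, on the MRL background that the MRL/+ mice share. The MRL/lpr mice had been bred at Biogen Idec and the MRL/+ mice were bought from the Jackson Laboratory, so the lpr mutation cannot be told apart from colony of origin. The remaining 4 samples, labelled Fn14ko, entered the tests only through the shared estimate of the spread between mice.

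*Fas* encodes a death receptor through which activated lymphocytes are removed. Without it, lymphocytes and plasma cells accumulate, autoantibodies form, and MRL/lpr mice develop kidney, skin and behavioural disease early in adult life, whereas MRL/+ mice stay well much longer. The hippocampus holds the granule neurons of the dentate gyrus and the pyramidal neurons of the CA fields, which serve memory and emotion. It lies next to the choroid plexus and below the meninges, tissues through which antibodies and immune cells can reach the brain.

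Each array measured 2 mice of the same strain, mice 1 and 3 with the green dye Cy3 and mice 2 and 4 with the red dye Cy5. A level is the brightness of a gene's probes after subtraction of the local background, as a multiple of the median of its channel. The array of MRL/lpr mice 3 and 4 was weak. Its median spot stood at 1.93 and 1.73 times the surrounding background, where the remaining 10 channels of the series gave 4.42 to 12.6, and its levels correlated across genes with those of other arrays at r of 0.26 to 0.49. Every direction is therefore given in both ways, over all 12 mice, where 8864 genes had a valid spot in each sample, and without the weak array, where 17936 genes did and MRL/lpr was left with 2 mice. These levels are on a 12-mouse and a 10-mouse scale, which have different medians and are not comparable. Genes valid only without the weak array are followed in all 12 mice through a fit without any filter on dim spots. On its scale genes of bright spots read low on the weak array. Genes of the mitochondrial respiratory chain, for example, summed to 2237 and 960 in MRL/lpr mice 3 and 4 and to 3596 to 13908 in MRL/+. A fall or a lost rise over unfiltered spots therefore does not by itself give the direction in mice 3 and 4. This holds too where such a gene is said below to fall both ways. Filtered spots of all 12 mice show it as well. The median log2 fold change of the respiratory chain was −0.75 with all 12 mice and 0.15 without the weak array. For general markers of neurons it was −0.75 and −0.03. A fall with all 12 mice in which mice 3 and 4 read far lowest is therefore not separate support for the fall in mice 1 and 2. In the Cy5 channel of MRL/+, negative-control spots reached 0.254 and 0.187 times the median on the 12-mouse scale and 0.691 and 0.581 on the 10-mouse scale, so that levels of this size or lower in MRL/+ mice 2 and 4 are within unspecific signal. The same spots reached 0.332 in MRL/lpr mouse 4, 0.0687 in mouse 3 and at most 0.0139 in the other MRL/lpr and MRL/+ channels on the 12-mouse scale. In MRL/+ mice 2 and 4 they stood at 6.16 and 6.14 times their background, above the median spot at 4.71 and 5.03. Unfiltered levels below the channel median are therefore within unspecific signal in MRL/+ mice 2 and 4. Every gene described below was well above its local background in at least 2 mice of each strain, except *Fas* and *Htr2a*. A value after ± is the standard error of limma. A log2 difference among the Cy3 mice is MRL/lpr mouse 1 against the mean of MRL/+ mice 1 and 3. Among the Cy5 mice it is MRL/lpr mouse 2 against the mean of MRL/+ mice 2 and 4, so each rests on 1 MRL/lpr mouse. The fits with the mice of 1 dye only, given at the end, include the weak array. Both arrays of a strain lay on 1 slide of their own, and slide, scan and strain cannot be told apart.

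Over all 12 mice, 307 genes rose in MRL/lpr (3.46% of the 8864) and 506 fell (5.71%) at an adjusted p under 0.05 in limma. Without the weak array, 1095 genes rose (6.11% of the 17936) and 1723 fell (9.61%). Counts within each list below are to be read beside these shares, in which falls outnumber rises. Of the genes measured in both ways, 222 rose in both (2.5%) and 319 fell in both (3.6%), and 0 of the 813 calls over 12 mice had the opposite sign without the weak array. Both fits share 6 of the 8 mice, and over all genes measured in both ways 60.6% had the same sign. The 4 MRL/lpr mice lay wholly above or wholly below the 4 MRL/+ mice for 1431 genes (16.1%). For such a gene the two-sided exact permutation test of 4 against 4 gives p = 0.0286, the smallest it can give, and it treats mice that share an array as independent. With the array as a random block the number of genes past the threshold was 7, and with only the 8 mice of the comparison it was 38, so most single calls below rest on treating mice as independent or on the spread of all 12. Of the 2818 calls made without the weak array, 1338 could be measured over the negative-control spots in place of the local background, and all 1338 kept their direction while 1154 kept the call.

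**Figure D1:**
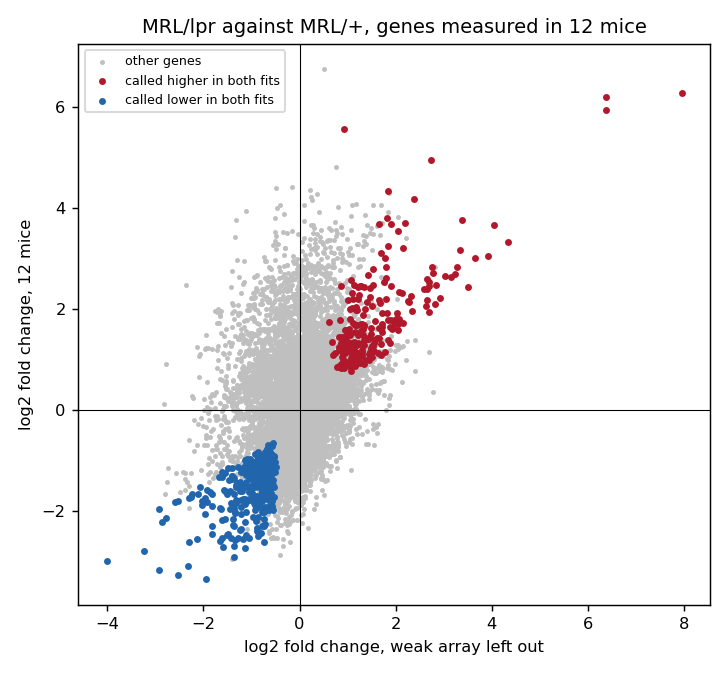
Each point is 1 of 8864 genes, with its log2 fold change between MRL/lpr and MRL/+ without the weak array on the x axis and over all 12 mice on the y axis. The 222 red genes rose and the 319 blue genes fell in both fits, and the grey cloud of other genes spreads further along the y axis.

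The tissue was checked against genes that mark subfields of the hippocampus and neighbouring regions. *Prox1*, the transcription factor that defines dentate granule neurons, had unfiltered levels of 2.85, 2.3, 7.34 and 5.24 in the 4 MRL/lpr mice and 0.482, 0.681, 0.481 and 0.636 in the 4 MRL/+ mice, and *Dsp*, a desmosomal protein of granule neurons, had 3.73, 2.74, 9.97 and 5.67 in the 4 MRL/lpr mice and 0.105, 0.622, 0.11 and 0.543 in the 4 MRL/+ mice. Both were thus lower in every MRL/+ mouse than in any MRL/lpr mouse, and both were well above background in 4 MRL/lpr mice and in 2 MRL/+ mice. The levels of both genes in MRL/+ mice 2 and 4 were within unspecific signal, so the size of the difference is uncertain. Over the unfiltered spots *Prox1* rose (log2 fold change 2.83, adjusted p = 0.00993, and 2.19 without the weak array), and so did *Dsp* (4.29, adjusted p = 0.00553, and 3.68 without the weak array). *Fibcd1*, a chitin-binding protein enriched in CA1, had 12-mouse levels of 0.143, 0.0917, 1.41 and 1.48 in the 4 MRL/lpr mice and 0.0307, 0.113, 0.0266 and 0.0753 in the 4 MRL/+ mice, and its log2 fold change was 2.98 ± 1.02 (adjusted p = 0.0759) with all 12 mice and 1.32 ± 0.45 (adjusted p = 0.07) without the weak array. *Pcp4*, a calmodulin regulator of CA2 neurons that other brain regions also express, had 10-mouse levels of 25.1 and 30.5 in MRL/lpr mice 1 and 2 and 30.4, 24.9, 34 and 31 in the MRL/+ mice. *Wfs1*, a CA1 marker that is also found in the cortex, had 18 and 25.6 in MRL/lpr against 16.5, 14, 13.5 and 15.8 in MRL/+. Neither differed past the threshold, with log2 fold changes of −1.46 with and −0.11 without the weak array (adjusted p = 0.0869 and 0.736) for *Pcp4* and of −0.92 with and 0.53 without the weak array (adjusted p = 0.246 and 0.0924) for *Wfs1*. Of the 13 members of the dentate list, 7 were well above background in all 4 MRL/+ mice and 1 in none, a count that says nothing of their level. The labels themselves name 2 tissues, hippocampus in the source field and cortex in the free text, and the makeup of the dissected tissue was not tested.

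Markers of dentate granule neurons and of the CA fields gave more rises than falls without the weak array, and with all 12 mice the dentate list gave more falls. In the dentate list, 3 of 10 measured members rose and 1 fell without the weak array (median log2 fold change 0.40), and 1 of 6 rose and 2 fell with all 12 mice (median 0.18). *Lct*, which encodes lactase and marks granule neurons, had levels of 1.04, 0.816, 1.25 and 0.904 in the 4 MRL/lpr mice and 0.13, 0.16, 0.156 and 0.158 in the 4 MRL/+ mice on the 12-mouse scale. Its log2 fold change was 2.71 ± 0.29 (adjusted p = 0.000978) with all 12 mice and 2.78 ± 0.24 (adjusted p = 7.78e-05) without the weak array. *C1ql2*, a secreted synaptic organiser of the mossy fibres, had 1.04 and 0.779 in MRL/lpr against 0.194, 0.555, 0.23 and 0.56 in MRL/+ on the 10-mouse scale, and *Dock10*, a regulator of small GTPases, had 2.46 and 2.18 in MRL/lpr against 0.838, 1.01, 0.553 and 0.944 in MRL/+. *C1ql2* rose without the weak array only (log2 fold change 1.39, adjusted p = 0.0329) and stood at 1.67 with all 12 mice (adjusted p = 0.0729). *Dock10* rose without the weak array (log2 fold change 1.51, adjusted p = 0.00486) but stood at −0.07 over the unfiltered spots (adjusted p = 0.983). *Pitpnm2*, a phosphatidylinositol transfer protein, fell both ways (log2 fold change −1.80 with and −0.78 without the weak array, adjusted p = 0.0293 and 0.0463). *Stxbp6*, which binds syntaxin, fell with all 12 mice only (log2 fold change −1.31, adjusted p = 0.0363) and stood at −0.60 without the weak array (adjusted p = 0.148).

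In the list of CA1, CA2 and CA3 pyramidal neurons, 6 of 14 measured members rose and 1 fell without the weak array (median log2 fold change 0.82), and 2 of 10 rose and 0 fell with all 12 mice (median 0.81). *Spink8*, a protease inhibitor used as a CA1 marker, had 10-mouse levels of 2.68 and 4.17 in MRL/lpr mice 1 and 2 and 0.111, 0.438, 0.0757 and 0.444 in the MRL/+ mice, and its log2 fold change was 4.06 ± 0.46 (adjusted p = 0.000376) without the weak array and 2.31 (adjusted p = 0.199) over the unfiltered spots of all 12 mice. *Neurod6*, a transcription factor of pyramidal neurons, had 6.62 and 5.44 in MRL/lpr against 1.51, 1.16, 1.97 and 1.54 in MRL/+. With the weak array its groups overlapped, since mice 3 and 4 read 0.407 and 0.485 on the 12-mouse scale within the MRL/+ range, and the log2 fold change was 0.90 ± 0.47 (adjusted p = 0.177) with all 12 mice and 1.98 ± 0.33 (adjusted p = 0.00309) without the weak array. *Bok*, a BCL2 family member that marks CA3, had 12-mouse levels of 1.41, 0.986, 1.48 and 1.05 in the 4 MRL/lpr mice and 0.745, 0.414, 0.695 and 0.379 in the 4 MRL/+ mice. It rose, with log2 fold changes of 1.18 with the weak array (adjusted p = 0.0103) and 1.31 without it (adjusted p = 0.00838). *Grik4*, the kainate receptor subunit of CA3, had 0.86, 1.51, 1.22 and 1.2 in MRL/lpr and 0.681, 0.762, 0.652 and 0.762 in MRL/+ and rose without the weak array only (log2 fold change 0.84, adjusted p = 0.0347) and stood at 0.72 with all 12 mice (adjusted p = 0.0558). *Pou3f1*, a transcription factor of CA1, rose with all 12 mice only (log2 fold change 1.48, adjusted p = 0.0368) and stood at 1.14 without the weak array (adjusted p = 0.109). In a bulk sample more cells of a type and more RNA per cell cannot be told apart, for any gene below.

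Markers of the neocortex, striatum and hypothalamus gave more falls than rises without the weak array. *Lamp5*, a membrane protein of cortical neurons and of some interneurons, had levels of 0.524, 0.59, 0.437 and 0.592 in the 4 MRL/lpr mice and 3.97, 5.73, 4.48 and 5.2 in the 4 MRL/+ mice, with no overlap. Its log2 fold change was −3.17 ± 0.23 (adjusted p = 0.000125) with all 12 mice and −2.93 ± 0.26 (adjusted p = 8.59e-05) without the weak array. *Cux2*, a transcription factor of the upper cortical layers, had 10-mouse levels of 0.471 and 0.656 in MRL/lpr mice 1 and 2 and 3.72, 3.54, 3.69 and 3.41 in the MRL/+ mice. *Rorb*, the layer 4 transcription factor that also serves the clock, had 0.367 and 0.424 in MRL/lpr against 1.67, 2.17, 2.31 and 2.03 in MRL/+, and *Mef2c*, which controls synapse number in the cortex, had 0.371 and 0.608 in MRL/lpr against 2.44, 2.56, 3.3 and 3.5 in MRL/+. *Cux2* fell without the weak array (log2 fold change −2.69, adjusted p = 3.38e-05). Over the unfiltered spots of all 12 mice, where bright genes read low on the weak array, it stood at −3.37 (adjusted p = 0.0165). *Rorb* fell both ways (log2 fold change −2.36 without the weak array and −2.41 over the unfiltered spots of all 12 mice, adjusted p = 6.21e-05 and 0.0201), and *Mef2c* did so too (log2 fold changes of −2.62 without the weak array and −3.23 over the unfiltered spots (adjusted p = 0.000178 and 0.0201)). In the list of cortical layer neurons, 2 of 11 measured members rose and 5 fell without the weak array (median log2 fold change −0.81), and 0 of 5 rose and 0 fell with all 12 mice (median 0.58). *Lamp5* is not in this list and is counted among the interneuron genes.

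In the striatum, *Rasd2*, a striatum-enriched small GTPase, had 12-mouse levels of 1.19, 1.86, 1.01 and 0.813 in the 4 MRL/lpr mice and 4.36, 4.22, 4.11 and 5.72 in the 4 MRL/+ mice and fell with all 12 mice (log2 fold change −1.97 ± 0.32, adjusted p = 0.0072) and without the weak array (−1.45 ± 0.32, adjusted p = 0.0138). *Scn4b*, a sodium channel subunit of striatal projection neurons, fell without the weak array only (log2 fold change −1.80, adjusted p = 0.0315) and stood at −1.35 with all 12 mice (adjusted p = 0.0775). Of the striatal list as a whole, 0 of 12 measured members rose and 4 fell without the weak array (median log2 fold change −1.18), and 0 of 6 rose and 1 fell with all 12 mice (median −0.12). *Cartpt*, a neuropeptide precursor of the hypothalamus and other regions, had levels of 0.156, 0.18, 0.355 and 0.576 in the 4 MRL/lpr mice and 0.731, 1.08, 0.904 and 1.03 in the 4 MRL/+ mice and fell both ways (log2 fold change −1.75 ± 0.41 with and −2.30 ± 0.31 without the weak array, adjusted p = 0.0293 and 0.000993). In the hypothalamic list, 0 of 11 measured members rose and 2 fell without the weak array (median log2 fold change −0.78), and 0 of 4 rose and 1 fell with all 12 mice (median 0.57), and in the thalamic list, 0 rose and 0 fell of 2 measured in all 12 mice, with a median log2 fold change of 0.06, and 1 rose and 1 fell of 8 measured without the weak array, with a median of −0.37. *Prkcd*, a protein kinase C isoform, rose without the weak array (log2 fold change 1.66, adjusted p = 0.00149) but stood at 0.05 over the unfiltered spots (adjusted p = 0.99), and *Tcf7l2*, a transcription factor of the thalamus, fell without the weak array only (log2 fold change −0.68, adjusted p = 0.049) and stood at −0.03 with all 12 mice (adjusted p = 0.962).

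**Figure D2:**
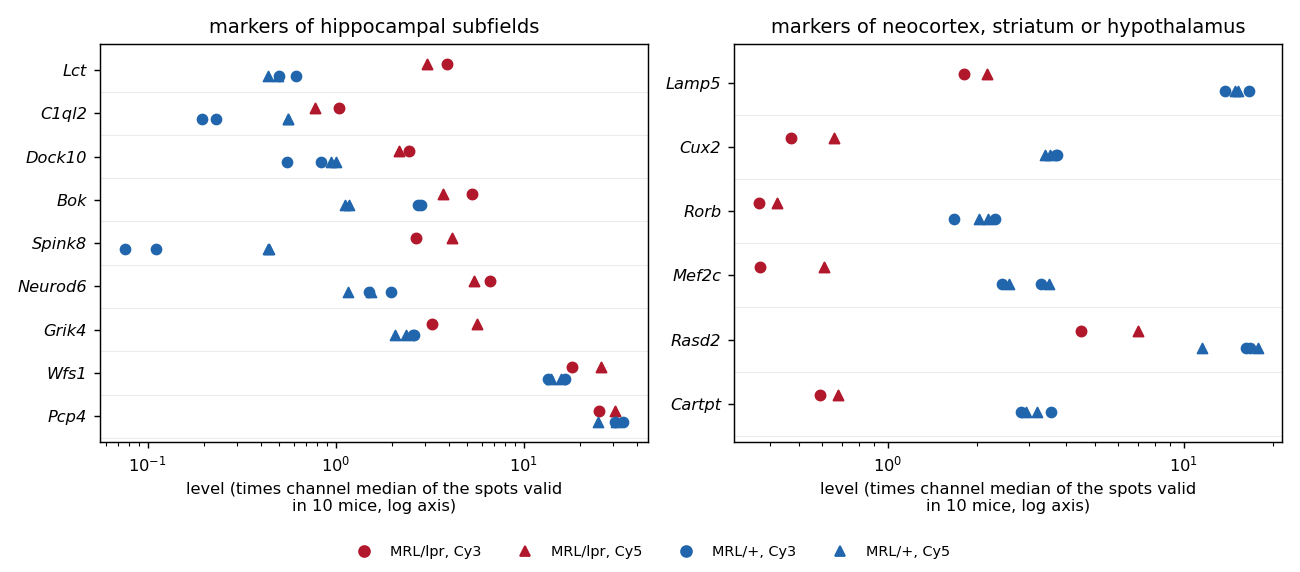
Levels of 9 markers of hippocampal subfields (left) and 6 markers of neocortex, striatum or hypothalamus (right) in 2 MRL/lpr mice (red) and 4 MRL/+ mice (blue), in multiples of the channel median on a log axis, with the weak array left out and 1 point per mouse. On the left *Lct* and *Spink8* lie higher in both MRL/lpr mice while *Pcp4* overlaps, and on the right all 6 genes lie lower in both MRL/lpr mice than in any MRL/+ mouse. The 6 genes on the right were picked among those called lower without the weak array.

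*Fas*, the mutated gene, is measured by 1 probe at chr19:34402164-34402223 (mm9), which was well above background in 1 MRL/lpr and 2 MRL/+ mice. Its unfiltered levels were 0.619, 0.411, 0.364 and 0.831 in the 4 MRL/lpr mice and 2.36, 1.23, 1.24 and 1.48 in the 4 MRL/+ mice, lower in every MRL/lpr mouse. The log2 fold change was −1.74 ± 0.43 (adjusted p = 0.0234) without the weak array and −1.53 (adjusted p = 0.0635) over the unfiltered spots of all 12 mice, and it was −0.90 among the Cy3 mice and −2.59 among the Cy5 mice. The Cy3 value leaves out the MRL/+ mice with the unspecific Cy5 signal. *Tnfrsf12a*, the receptor Fn14 of the cytokine TWEAK, had log2 fold changes of −0.16 without the weak array and −1.16 over the unfiltered spots (adjusted p = 0.669 and 0.328), and *Tnfsf12*, which encodes TWEAK, of 1.38 with and −0.24 without the weak array (adjusted p = 0.141 and 0.423), with probes that disagreed in sign. Neither passed the threshold in either way.

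Among rises called with and without the weak array, immunoglobulins came first. The array lists immunoglobulin kappa constant and immunoglobulin heavy constant alpha under transcript identifiers without symbols (ENSMUST00000103410.2 and ENSMUST00000178282.2). They were chosen after their values had been seen, because they and 1 pseudogene were the 3 largest rises called in both ways, and all 3 were well above background in 4 MRL/lpr and 2 MRL/+ mice. The kappa probe lies at chr6:70676692-70676751 (mm9) and ends with the last codons of the light chain, shown here with its stop codon in capitals, since the largest rise rests on it:

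Ig kappa constant: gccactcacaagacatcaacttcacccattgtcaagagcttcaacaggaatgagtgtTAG

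On the 12-mouse scale this probe read 17.6, 9.88, 0.56 and 4.48 in the 4 MRL/lpr mice and 0.0228, 0.174, 0.0312 and 0.1 in the 4 MRL/+ mice. MRL/lpr mouse 3 on the weak array was the lowest of the MRL/lpr mice and still above every MRL/+ mouse. The log2 fold change was 6.27 ± 0.83 (adjusted p = 0.00296) with all 12 mice and 7.96 ± 0.49 (adjusted p = 2.01e-05) without the weak array, and its log2 difference was 9.32 among the Cy3 mice and 6.6 among the Cy5 mice. The alpha heavy chain, the constant part of IgA, read 6.06, 1.89, 1.17 and 4.32 in MRL/lpr and 0.0107, 0.179, 0.0167 and 0.131 in MRL/+. Its log2 fold change was 5.93 ± 0.75 (adjusted p = 0.00251) with all 12 mice and 6.39 ± 0.80 (adjusted p = 0.000676) without the weak array. *Jchain*, the joining chain that links IgA and IgM into polymers and is made by plasma cells, read 1.2, 0.563, 0.421 and 0.848 in MRL/lpr and 0.0134, 0.252, 0.0136 and 0.201 in MRL/+. It rose, with log2 fold changes of 3.67 with the weak array (adjusted p = 0.0245) and 4.06 without it (adjusted p = 0.00793). Its log2 difference was 6.42 among the Cy3 mice and 1.70 among the Cy5 mice. Immunoglobulin RNA was thus higher in each of the 4 MRL/lpr mice, while the other members of the B and plasma cell list showed little: 1 of 9 measured members rose and 0 fell without the weak array (median log2 fold change 0.21), and 1 of 4 rose and 0 fell with all 12 mice (median 1.50), *Jchain* being the member that rose. In no MRL/+ mouse were 4 of its 15 members well above background, and in no MRL/lpr mouse 5.

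The third of these was a predicted pseudogene on the X chromosome (ENSMUST00000118343.1), whose probe lies at chrX:18498047-18498106 (mm9). Its levels were 1.92, 7.33, 2.96 and 4.54 in the 4 MRL/lpr mice and 0.0199, 0.122, 0.0218 and 0.124 in the 4 MRL/+ mice. The log2 fold change was 6.19 ± 0.48 (adjusted p = 0.000125) with all 12 mice and 6.37 ± 0.38 (adjusted p = 2.01e-05) without the weak array, and with the array as a random block it alone of these 3 stayed past the threshold. For all 3 the levels of MRL/+ mice 2 and 4 are within the unspecific signal of their channels, so the size of these changes is uncertain.

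Genes of antigen presentation rose next to the immunoglobulins. MHC class II molecules show peptides to helper T cells and are made by B cells, dendritic cells and activated microglia or macrophages. *H2-Eb1*, a class II beta chain, had 12-mouse levels of 1.41, 0.841, 0.544 and 0.803 in the 4 MRL/lpr mice and 0.087, 0.209, 0.0885 and 0.214 in the 4 MRL/+ mice. Every MRL/lpr mouse exceeded every MRL/+ mouse, and the log2 fold change was 2.64 ± 0.37 (adjusted p = 0.00378) with all 12 mice and 3.16 ± 0.29 (adjusted p = 0.000115) without the weak array. *H2-Ab1*, the beta chain of the other class II molecule, had 10-mouse levels of 3.15 and 1.77 in MRL/lpr mice 1 and 2 and 0.235, 0.552, 0.276 and 0.589 in the MRL/+ mice, and *Cd74*, the invariant chain that guides class II molecules through the cell, had 19.3 and 6.19 in MRL/lpr against 1.09, 1.28, 1.34 and 1.31 in MRL/+. *H2-Ab1* rose without the weak array (log2 fold change 2.63, adjusted p = 0.000923) but stood at 1.25 over the unfiltered spots (adjusted p = 0.373). *Cd74* rose without the weak array (log2 fold change 3.13, adjusted p = 0.000303) but stood at 0.70 over the unfiltered spots (adjusted p = 0.833). In mice 3 and 4 the unfiltered level of *Cd74* was 0.982 and 1.59, below that of every MRL/+ mouse (2.55 to 8.66). Bright genes read low in these 2 mice on this scale, so the direction in them is not known. The rise of *Cd74* rests on mice 1 and 2. Of the MHC class II list, these 3 of 11 measured members rose and 0 fell without the weak array (median log2 fold change −0.05), and *H2-Eb1* was the 1 member measured with all 12 mice.

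MHC class I molecules show peptides of the cell's own proteins to cytotoxic T cells, and neurons also use them at synapses. *H2-K1*, a classical class I heavy chain, had 10-mouse levels of 10.01 and 6.71 in MRL/lpr mice 1 and 2 and 1.28, 1.91, 1.4 and 1.64 in the MRL/+ mice. On the 12-mouse scale mice 3 and 4 read 0.468 and 0.923 and overlapped with MRL/+, and the log2 fold change was 1.37 ± 0.48 (adjusted p = 0.0789) with all 12 mice and 2.41 ± 0.31 (adjusted p = 0.000781) without the weak array. *H2-D1*, the second classical heavy chain, had 4.35 and 3.6 in MRL/lpr against 0.685, 0.735, 0.655 and 0.652 in MRL/+ and log2 fold changes of 2.54 without the weak array (adjusted p = 0.0244) and 0.87 over the unfiltered spots (adjusted p = 0.697). *H2-Q7*, a non-classical heavy chain, had 12-mouse levels of 0.987, 0.536, 3.67 and 6.69 in MRL/lpr and 0.241, 0.217, 0.28 and 0.218 in MRL/+, highest on the weak array, and it rose with all 12 mice (log2 fold change 3.0, adjusted p = 0.0258) and without the weak array (1.78, adjusted p = 0.0149). *Psmb10*, a subunit of the immunoproteasome that cuts peptides for class I, fell both ways (log2 fold change −1.80 with and −0.58 without the weak array, adjusted p = 0.0408 and 0.0253). In the whole class I list, 7 of 20 measured members rose and 1 fell without the weak array (median log2 fold change 0.50), and 1 of 10 rose and 1 fell with all 12 mice (median 0.51). Class I genes are near-identical copies of one another, so a probe may also bind the RNA of a neighbour.

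The promoters of 3 of these genes are shown because class I and class II genes were higher together in mice 1 and 2. Each is the 250 bases before the start of the gene, from RefSeq on GRCm38.p6, and capitals mark CCAAT and GGATTCC, each searched on both strands, of which the second is the centre of the NF-kB site of class I genes. *H2-Eb1* is on the plus strand (chr17:34305617-34305866), *H2-K1* on the minus strand (chr17:34000334-34000583, the second of 2 starts) and *H2-D1* on the plus strand (chr17:35262844-35263093).

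H2-Eb1: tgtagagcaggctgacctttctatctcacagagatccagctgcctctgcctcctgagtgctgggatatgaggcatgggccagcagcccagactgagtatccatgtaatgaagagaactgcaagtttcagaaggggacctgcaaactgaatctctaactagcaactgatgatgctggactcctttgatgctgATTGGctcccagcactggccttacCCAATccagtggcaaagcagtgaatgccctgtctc

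H2-K1: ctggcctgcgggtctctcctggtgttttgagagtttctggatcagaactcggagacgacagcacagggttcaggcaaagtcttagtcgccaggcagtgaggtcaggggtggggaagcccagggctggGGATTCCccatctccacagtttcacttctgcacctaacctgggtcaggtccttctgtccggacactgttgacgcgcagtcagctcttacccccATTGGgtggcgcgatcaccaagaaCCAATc

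H2-D1: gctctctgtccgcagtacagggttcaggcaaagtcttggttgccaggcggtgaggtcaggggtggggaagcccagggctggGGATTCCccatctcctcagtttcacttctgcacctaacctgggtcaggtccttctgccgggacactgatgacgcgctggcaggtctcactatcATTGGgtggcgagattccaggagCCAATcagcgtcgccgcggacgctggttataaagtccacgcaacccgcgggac

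CCAAT or its reverse matched 2 times in each of the 3 promoters shown, and 1 time before the first start of *H2-K1*. Of 27025 promoter windows of this length, 1 per gene, 34.5% hold it at least 1 time. GGATTCC matched 1 time in *H2-K1* and 1 time in *H2-D1*, 123 and 169 bases before the start, and 0 times in *H2-Eb1*, where 3.21% of all windows hold it. A match is a description of letters and says nothing of binding.

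Complement genes gave rises and 0 falls. *C3*, the central component on which the complement pathways converge, had levels of 0.766, 0.463, 0.493 and 0.663 in the 4 MRL/lpr mice and 0.0635, 0.181, 0.0594 and 0.13 in the 4 MRL/+ mice. It rose, with log2 fold changes of 2.59 ± 0.44 with the weak array (adjusted p = 0.00869) and 2.65 ± 0.35 without it (adjusted p = 0.000922), with no overlap between the strains. *C4b*, the component before it in the classical pathway, had 10-mouse levels of 8.43 and 8.41 in MRL/lpr mice 1 and 2 and 0.858, 1.81, 1.21 and 1.55 in the MRL/+ mice. With the weak array, whose mice read 0.251 and 0.422 on the 12-mouse scale against 0.223 to 0.663 in MRL/+, its log2 fold change was 1.14 (adjusted p = 0.232), compared with 2.69 (adjusted p = 0.00095) without it. *Serping1*, the C1 inhibitor, had 12-mouse levels of 0.728, 0.429, 0.245 and 0.485 in MRL/lpr and 0.219, 0.171, 0.189 and 0.155 in MRL/+ and rose with all 12 mice (log2 fold change 1.27, adjusted p = 0.043) and without the weak array (1.53, adjusted p = 0.00276). Over the complement list, 2 rose and 0 fell of 8 measured in all 12 mice, with a median log2 fold change of 1.20, and 3 rose and 0 fell of 16 measured without the weak array, with a median of 0.35. Rises over all genes were 3.46% and 6.11%.

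Interferon-stimulated genes passed the threshold without the weak array only. *Ifi35*, an interferon-induced protein, had 10-mouse levels of 1.51 and 3.6 in MRL/lpr mice 1 and 2 and 0.143, 0.97, 0.177 and 0.954 in the MRL/+ mice, and its log2 fold change was 2.58 ± 0.41 (adjusted p = 0.00268) without the weak array and 1.23 (adjusted p = 0.363) over the unfiltered spots of all 12 mice. *Igtp*, an interferon-gamma-induced GTPase that acts against intracellular parasites, had 1.35 and 0.926 in MRL/lpr against 0.247, 0.399, 0.242 and 0.35 in MRL/+. It rose without the weak array (log2 fold change 1.89, adjusted p = 0.00729) and stood at 1.68 over the unfiltered spots (adjusted p = 0.073). Its unfiltered levels were 6.33, 3.75, 3.34 and 2.96 in the 4 MRL/lpr mice and 1.75, 0.882, 1.72 and 0.838 in the 4 MRL/+ mice, so the strains did not overlap. Those of MRL/+ mice 2 and 4 were within unspecific signal. In the list of interferon-stimulated genes, 6 of 31 measured members rose and 1 fell without the weak array (median log2 fold change 0.56), and 0 of 9 rose and 0 fell with all 12 mice (median 0.88), so the share of rises without the weak array, 6 of 31, stood against 6.11% of all genes.

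T and NK cell genes did not move together. *Ccl5*, a chemokine of activated T cells, had 10-mouse levels of 0.754 and 0.483 in MRL/lpr mice 1 and 2 and 0.0648, 0.381, 0.0742 and 0.315 in the MRL/+ mice. It rose without the weak array (log2 fold change 1.96, adjusted p = 0.0498) and stood at 1.50 over the unfiltered spots (adjusted p = 0.107), and its log2 difference was 3.44 among the Cy3 mice and 0.48 among the Cy5 mice. *Cd6*, a T cell surface receptor, fell (log2 fold change −2.37, adjusted p = 0.000126) without the weak array but had a log2 fold change of 2.47 with it (adjusted p = 0.206). Its probes changed as well as its mice: the probe valid over all 12 mice, on which mice 3 and 4 read 2.93 and 3.31 and all others 0.0410 to 0.0930, gave −0.46 without the weak array, and a second probe, valid only then, gave −3.34. These were the only calls in the T and NK cell list: 1 of 15 measured members rose and 1 fell without the weak array (median log2 fold change −0.19), and 0 of 6 rose and 0 fell with all 12 mice (median 0.65). Of the list, 7 members were well above background in no MRL/+ mouse.

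Chemokine genes gave more falls than rises. *Cxcl14*, a chemokine of interneurons, had levels of 2.79, 3.08, 2.37 and 1.7 in the 4 MRL/lpr mice and 4.53, 6.6, 4.85 and 6.3 in the 4 MRL/+ mice and fell both ways (log2 fold change −1.18 ± 0.25 with and −0.75 ± 0.15 without the weak array, adjusted p = 0.0192 and 0.00903). *Ccl27a*, which also draws T cells to skin, had 0.968, 1.18, 0.485 and 0.686 in MRL/lpr and 1.82, 3.64, 2.72 and 2.93 in MRL/+ and fell, with log2 fold changes of −1.78 with the weak array (adjusted p = 0.00788) and −1.06 without it (adjusted p = 0.0134). *Ackr1*, a decoy receptor that binds chemokines without signalling, had 1.51, 1.27, 0.275 and 0.419 in MRL/lpr and 2.37, 3.13, 2.41 and 2.71 in MRL/+ and fell with all 12 mice (log2 fold change −1.94, adjusted p = 0.03) and without the weak array (−0.77, adjusted p = 0.007). The 4 MRL/lpr mice lay below the 4 MRL/+ mice for each of the 3. *Ccl17*, a ligand of CCR4 expressed by dendritic cells and some hippocampal neurons, had 10-mouse levels of 0.424 and 0.434 in MRL/lpr against 1.21, 1.3, 1.38 and 1.42 in MRL/+ and fell without the weak array (log2 fold change −1.63, adjusted p = 0.000653) and stood at −1.84 over the unfiltered spots (adjusted p = 0.0586). In the chemokine list, 0 rose and 4 fell of 10 measured in all 12 mice, with a median log2 fold change of −0.70, and 2 rose and 4 fell of 22 measured without the weak array, with a median of −0.32. Falls over all genes were 5.71% and 9.61%. Within the list of TNF receptor and NF-kB signalling, where *Fas* belongs, 1 of 34 measured members rose and 3 fell without the weak array (median log2 fold change −0.23), and 0 of 11 rose and 1 fell with all 12 mice (median 0.32). *Nfkbib*, an inhibitor that holds NF-kB in the cytoplasm, fell both ways (log2 fold change −1.34 with and −0.81 without the weak array, adjusted p = 0.0112 and 0.00665).

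**Figure D3:**
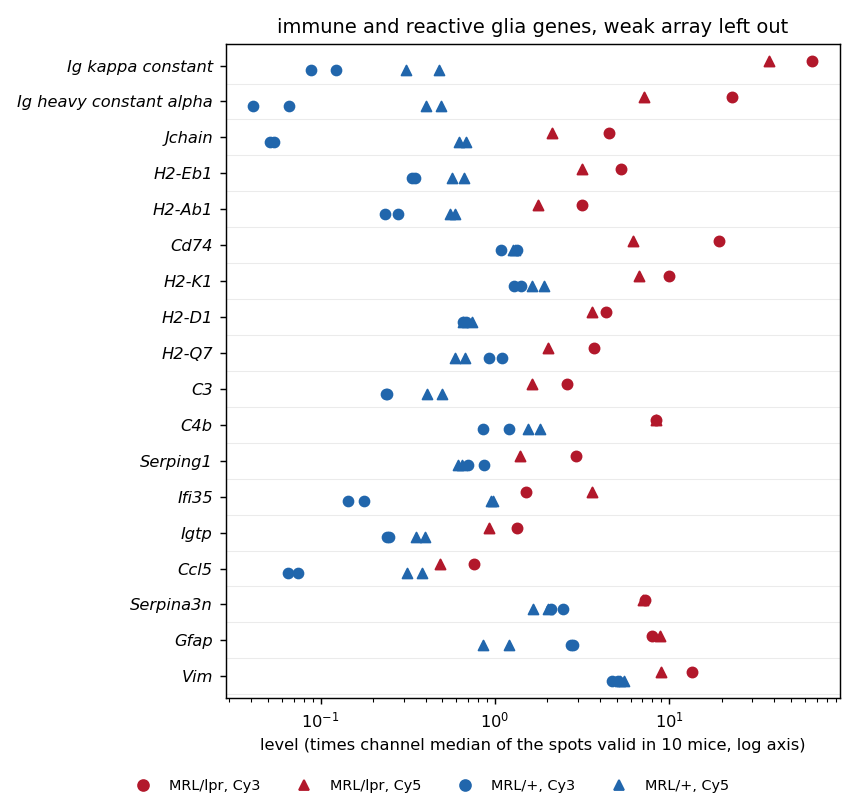
Levels of 18 immune and reactive glia genes in 2 MRL/lpr mice (red) and 4 MRL/+ mice (blue), in multiples of the channel median on a log axis, with the weak array left out and 1 point per mouse. Both MRL/lpr mice lie above all 4 MRL/+ mice for each gene, furthest apart for Ig kappa constant at 66.3 and 37.2 against 0.0878 to 0.475. The 18 genes were picked among those called higher without the weak array, so their separation is no result about their lists. Members that fell, such as *Psmb10* and *Cd6*, are not shown.

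Markers of tissues next to the hippocampus are given here because their RNA can enter the same sample. Choroid plexus epithelium makes the cerebrospinal fluid. *Ttr*, its transthyretin, had levels of 33.4, 10.03, 2.13 and 15.2 in the 4 MRL/lpr mice and 0.94, 1.5, 0.754 and 0.997 in the 4 MRL/+ mice, and its log2 fold change was 3.33 ± 0.88 (adjusted p = 0.0399) with all 12 mice and 4.34 ± 0.73 (adjusted p = 0.00339) without the weak array. *Slc26a4*, an anion exchanger outside the choroid plexus list and 1 of the 10 largest rises, had 0.776, 0.5, 0.677 and 0.537 in MRL/lpr and 0.0607, 0.131, 0.0388 and 0.0728 in MRL/+ and rose, with log2 fold changes of 3.16 with the weak array (adjusted p = 0.00398) and 3.34 without it (adjusted p = 0.000187). *Clic6*, a chloride channel protein, rose without the weak array (log2 fold change 3.47, adjusted p = 0.0148) and stood at 1.98 over the unfiltered spots (adjusted p = 0.277), and the same held for *Folr1*, the folate receptor of the epithelium (log2 fold changes of 3.28 without the weak array and 1.78 over the unfiltered spots (adjusted p = 0.00899 and 0.279)). Summed over the choroid plexus list without the weak array, the level was 222 and 74.9 in MRL/lpr mice 1 and 2 and ran from 29.9 to 36.2 in the MRL/+ mice. Over unfiltered spots it was 956, 294, 111 and 137 in the 4 MRL/lpr mice and 64.6 to 235 in MRL/+. Mice 3 and 4 read within the MRL/+ range, but on a scale on which bright genes read low in these 2 mice. In the list, 6 of 16 measured members rose and 0 fell without the weak array (median log2 fold change 1.64), and 1 of 7 rose and 0 fell with all 12 mice (median 2.02). Rises over all genes were 6.11% and 3.46%. In no MRL/+ mouse were 5 of the 22 members well above background.

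Meningeal fibroblasts build the collagen-rich covering of the brain. *Dcn*, the proteoglycan decorin, had levels of 2.84, 1.68, 1.43 and 1.4 in the 4 MRL/lpr mice and 0.53, 0.31, 0.466 and 0.303 in the 4 MRL/+ mice and rose with all 12 mice (log2 fold change 2.17 ± 0.27, adjusted p = 0.00251) and without the weak array (2.65 ± 0.29, adjusted p = 0.000344). *Ogn*, the related proteoglycan osteoglycin, had 0.698, 0.164, 2.41 and 3.67 in MRL/lpr and 0.111, 0.115, 0.0972 and 0.102 in MRL/+ and rose both ways (log2 fold change 3.24 with and 1.84 without the weak array, adjusted p = 0.0298 and 0.0122). *Col1a2*, a chain of type I collagen, rose without the weak array only (log2 fold change 2.01, adjusted p = 0.00676) and stood at 1.29 with all 12 mice (adjusted p = 0.095), and *Mgp*, matrix Gla protein, had log2 fold changes of 1.84 without the weak array and −0.34 over the unfiltered spots (adjusted p = 0.0393 and 0.939). The summed level of the meningeal list was 102 and 39.9 in MRL/lpr mice 1 and 2 and ran from 18.3 to 30.03 in the MRL/+ mice. Over unfiltered spots it was 435, 155, 93.4 and 92.4 in the 4 MRL/lpr mice and 36.6 to 195 in MRL/+. Only mouse 1 read above the MRL/+ range, and this scale does not place mice 3 and 4. In that list, 8 of 13 measured members rose and 0 fell without the weak array (median log2 fold change 1.47), and 2 of 4 rose and 0 fell with all 12 mice (median 1.73).

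Of pericyte and smooth muscle genes, 4 of 12 measured members rose and 0 fell without the weak array (median log2 fold change 0.19), and 0 of 5 rose and 0 fell with all 12 mice (median 0.50). Smooth muscle genes of vessels were called without the weak array only. *Acta2*, smooth muscle actin, had log2 fold changes of 0.50 with and 1.58 without the weak array (adjusted p = 0.456 and 0.00306), and *Myl9*, a myosin light chain, of 0.61 with and 1.45 without the weak array (adjusted p = 0.24 and 0.00586). In the ependyma, whose ciliated cells line the ventricles, *Foxj1*, the regulator of motile cilia, rose without the weak array (log2 fold change 1.68, adjusted p = 0.0297) but stood at 0.34 over the unfiltered spots (adjusted p = 0.878), and *Ccdc153*, a cilium gene, had log2 fold changes of 3.73 without the weak array and 2.55 over the unfiltered spots (adjusted p = 0.0264 and 0.162). Over the ependyma list, 0 rose and 0 fell of 2 measured in all 12 mice, with a median log2 fold change of 0.55, and 3 rose and 0 fell of 10 measured without the weak array, with a median of 1.42. Red cell genes rose as well without the weak array (4 of 6 measured members) and not with all 12 mice (0 of 3): log2 fold changes were 2.24 without the weak array and 1.02 over the unfiltered spots (adjusted p = 0.00383 and 0.465) for *Alas2*, the erythroid enzyme of haem synthesis, and 0.56 with and 2.14 without the weak array (adjusted p = 0.555 and 0.00194) for *Hbb-b2*, a beta globin whose RNA is not separable from that of its near-identical copy. The 10-mouse levels of *Hbb-b2* were 96.2 and 72.6 in MRL/lpr against 23, 16.2, 20.6 and 16.7 in MRL/+, and the erythroid list summed to 656 and 513 in MRL/lpr mice 1 and 2 and ran from 132 to 191 in the MRL/+ mice. Over unfiltered spots the erythroid sum was 2803, 1999, 284 and 56.9 in the 4 MRL/lpr mice and 266 to 1240 in MRL/+. Mice 3 and 4 did not read above MRL/+ there, where bright genes read low in them. Endothelial genes gave no rise: 0 of 22 measured members rose and 1 fell without the weak array (median log2 fold change −0.08), and 0 of 13 rose and 0 fell with all 12 mice (median −0.70), with *Cldn5*, the tight junction protein claudin 5, at a log2 fold change of −1.06 with and 0.07 without the weak array (adjusted p = 0.138 and 0.874). Choroid plexus, meningeal, ependymal and red cell RNA moved in the same direction as immunoglobulin, class II, complement and astrocyte genes in mice 1 and 2, and its part in those results was not tested.

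Of the genes of reactive astrocytes, which answer injury and inflammation, *Gfap* rose both ways and others without the weak array. *Gfap*, the intermediate filament of astrocytes, had 12-mouse levels of 3.02, 3.24, 2.82 and 3.47 in the 4 MRL/lpr mice and 1.06, 0.371, 0.994 and 0.463 in the 4 MRL/+ mice. The strains did not overlap, and the log2 fold change was 2.26 ± 0.30 (adjusted p = 0.00296) with all 12 mice and 2.32 ± 0.33 (adjusted p = 0.00136) without the weak array. *Serpina3n*, a secreted protease inhibitor that rises in inflamed brain, had 10-mouse levels of 7.22 and 7.02 in MRL/lpr mice 1 and 2 and 2.45, 1.65, 2.09 and 2 in the MRL/+ mice, and *Vim*, vimentin, had 13.5 and 8.99 in MRL/lpr against 5.08, 5.52, 4.67 and 5.23 in MRL/+. *Serpina3n* rose without the weak array (log2 fold change 1.81, adjusted p = 0.000474) but stood at −0.20 over the unfiltered spots (adjusted p = 0.959), and *Vim* rose without the weak array (log2 fold change 1.11, adjusted p = 0.00326) but stood at −1.41 over the unfiltered spots (adjusted p = 0.556). The unfiltered levels of *Serpina3n* were 1.92 and 1.08 in the mice of the weak array, below every MRL/+ mouse, and 30.9 and 27.3 in mice 1 and 2. Bright genes read low on the weak array on this scale, so the direction in its mice is not known. In the reactive astrocyte list, 6 of 14 measured members rose and 0 fell without the weak array (median log2 fold change 0.54), and 1 of 4 rose and 0 fell with all 12 mice (median 0.38).

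The general astrocyte list moved both ways: 1 rose and 1 fell of 16 measured in all 12 mice, with a median log2 fold change of −0.19, and 2 rose and 3 fell of 19 measured without the weak array, with a median of −0.07. *Acsbg1*, an acyl-CoA synthetase of astrocytes, had 3.28, 3.83, 1.42 and 1.22 in MRL/lpr and 5.67, 8.01, 5.61 and 8.92 in MRL/+ and fell, with log2 fold changes of −1.68 with the weak array (adjusted p = 0.025) and −0.80 without it (adjusted p = 0.0192). *S100b*, a calcium-binding protein, fell without the weak array (log2 fold change −0.87, adjusted p = 0.011) and stood at −3.38 over the unfiltered spots (adjusted p = 0.172), while *Gjb6*, the gap junction protein connexin 30, rose without the weak array only (log2 fold change 0.92, adjusted p = 0.0292) and stood at −0.11 with all 12 mice (adjusted p = 0.866).

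Microglia, the resident macrophages of the brain, gave 1 rise and 2 falls with all 12 mice and the same numbers without the weak array. *P2ry12*, the purine receptor of resting microglia, had levels of 0.355, 0.39, 0.184 and 0.412 in the 4 MRL/lpr mice and 0.601, 0.788, 0.575 and 0.646 in the 4 MRL/+ mice and fell with all 12 mice (log2 fold change −1.02 ± 0.26, adjusted p = 0.0366) and without the weak array (−0.64 ± 0.15, adjusted p = 0.0177). *Cx3cr1*, the fractalkine receptor, fell with all 12 mice only (log2 fold change −1.02, adjusted p = 0.0454) and stood at −0.49 without the weak array (adjusted p = 0.114), and *Selplg*, a ligand of selectins, fell without the weak array only (log2 fold change −0.88, adjusted p = 0.0263) and stood at −0.88 with all 12 mice (adjusted p = 0.0631). In the microglia list, 1 of 23 measured members rose and 2 fell without the weak array (median log2 fold change −0.19), and 1 of 17 rose and 2 fell with all 12 mice (median −0.54). The only rise was that of *Siglech*, a lectin, with log2 fold changes of 1.54 with and 1.71 without the weak array (adjusted p = 0.0142 and 0.00727), and its probes disagreed in sign. Over all genes, 6.11% rose and 9.61% fell without the weak array, and 3.46% rose and 5.71% fell with all 12 mice.

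Oligodendrocyte genes, which serve myelin, gave rises and 0 falls. *Mog*, the myelin oligodendrocyte glycoprotein, had levels of 0.417, 0.318, 0.943 and 1.08 in the 4 MRL/lpr mice and 0.279, 0.21, 0.24 and 0.173 in the 4 MRL/+ mice and rose both ways (log2 fold change 1.45 ± 0.39 with and 0.88 ± 0.19 without the weak array, adjusted p = 0.0428 and 0.0119). *Mal*, a proteolipid of myelin, had 10-mouse levels of 22.6 and 22.1 in MRL/lpr against 10.2, 3.86, 9.28 and 6.71 in MRL/+ and rose without the weak array only (log2 fold change 1.67, adjusted p = 0.00242) and stood at 0.53 with all 12 mice (adjusted p = 0.419). *Ugt8a*, the enzyme that makes the lipid galactosylceramide, rose without the weak array (log2 fold change 1.23, adjusted p = 0.0166) but stood at −0.32 over the unfiltered spots (adjusted p = 0.909). *Mbp*, myelin basic protein, had log2 fold changes of 0.03 with and −0.05 without the weak array (adjusted p = 0.908 and 0.884), with probes that disagreed in sign. Over the list, 5 of 17 measured members rose and 0 fell without the weak array (median log2 fold change 0.52), and 1 of 14 rose and 0 fell with all 12 mice (median 0.23). Among the precursors of these cells, 0 of 12 measured members rose and 2 fell without the weak array (median log2 fold change −0.18), and 0 of 8 rose and 0 fell with all 12 mice (median 0.22).

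The general markers of neurons gave 1 call: 0 of 16 measured members rose and 1 fell without the weak array (median log2 fold change −0.03), and 0 of 16 rose and 0 fell with all 12 mice (median −0.75). *Tubb3*, the neuronal tubulin, had levels of 2.31, 2.91, 2.56 and 4.7 in MRL/lpr and 3.4, 7.73, 4.28 and 5.95 in MRL/+ and fell without the weak array only (log2 fold change −0.81, adjusted p = 0.00975) and stood at −0.76 with all 12 mice (adjusted p = 0.0654). Interneuron genes gave falls and 0 rises. *Npy*, the neuropeptide Y of hippocampal interneurons, had levels of 1.99, 1.84, 0.511 and 0.513 in the 4 MRL/lpr mice and 4.72, 6.97, 5.52 and 5.89 in the 4 MRL/+ mice, and its log2 fold change was −2.53 ± 0.44 (adjusted p = 0.00903) with all 12 mice and −1.42 ± 0.16 (adjusted p = 0.000345) without the weak array. *Pvalb*, the calcium buffer of fast-spiking cells, had 1.75, 1.77, 0.942 and 0.871 in MRL/lpr and 3.39, 6.11, 5.26 and 6.62 in MRL/+ and fell, with log2 fold changes of −2.04 with the weak array (adjusted p = 0.00453) and −1.35 without it (adjusted p = 0.00126). For these genes the MRL/lpr mice lay below the MRL/+ mice without overlap, and mice 3 and 4 were the lowest. The low readings of mice 3 and 4 are not particular to these genes, since the median of the general neuronal markers also went from −0.03 to −0.75 with the weak array. *Vip*, a peptide of interneurons that inhibit other interneurons, had 10-mouse levels of 1.05 and 1.24 in MRL/lpr against 2.11, 2.38, 2.46 and 2.34 in MRL/+ and fell without the weak array (log2 fold change −1.02, adjusted p = 0.00327) and stood at −2.07 over the unfiltered spots (adjusted p = 0.134). Over the list, 0 rose and 4 fell of 11 measured in all 12 mice, with a median log2 fold change of −1.11, and 0 rose and 5 fell of 20 measured without the weak array, with a median of −0.51. These falls include *Lamp5*, given above with the cortical markers. Falls over all genes were 5.71% and 9.61%.

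Glutamatergic transmission held one of the largest rises and several falls. *Gria1*, the AMPA receptor subunit of hippocampal pyramidal cells, had levels of 2.3, 1.7, 3.66 and 2.01 in the 4 MRL/lpr mice and 0.546, 0.199, 0.495 and 0.208 in the 4 MRL/+ mice, and its log2 fold change was 2.83 ± 0.26 (adjusted p = 0.000285) with all 12 mice and 2.76 ± 0.33 (adjusted p = 0.000489) without the weak array. *Shisa6*, an auxiliary protein that traps AMPA receptors at the synapse, had 1.23, 0.932, 2.17 and 2.32 in MRL/lpr and 0.12, 0.128, 0.1 and 0.113 in MRL/+. Its log2 fold change was 3.75 ± 0.33 (adjusted p = 0.000285) with all 12 mice and 3.38 ± 0.17 (adjusted p = 1.01e-05) without the weak array, and its log2 difference was 3.44 among the Cy3 mice and 3.33 among the Cy5 mice. *Cacng3*, an auxiliary subunit of AMPA receptors of the TARP family, had levels of 0.722, 0.839, 0.247 and 0.456 in the 4 MRL/lpr mice and 3.52, 6.17, 3.6 and 4.7 in the 4 MRL/+ mice. In contrast to *Shisa6* it fell with all 12 mice (log2 fold change −3.10, adjusted p = 0.000814) and without the weak array (−2.33, adjusted p = 2.87e-05). *Slc17a7*, the vesicular glutamate transporter of cortical and hippocampal excitatory neurons, had 4.03, 3.11, 1.51 and 1.12 in MRL/lpr and 11.2, 9.94, 10.3 and 10.1 in MRL/+ and fell both ways (log2 fold change −2.27 ± 0.36 with and −1.39 ± 0.18 without the weak array, adjusted p = 0.00703 and 0.000752). *Grin1*, the obligatory subunit of NMDA receptors, had 2.6, 2.12, 0.964 and 0.662 in MRL/lpr and 4.91, 6.09, 3.71 and 8.84 in MRL/+ and fell, with log2 fold changes of −2.03 with the weak array (adjusted p = 0.0236) and −1.12 without it (adjusted p = 0.0308). *Grm4*, a metabotropic receptor of nerve endings, fell both ways (log2 fold change −1.88 without the weak array and −1.75 over the unfiltered spots of all 12 mice, adjusted p = 0.000202 and 0.0446), and *Shank1*, a scaffold of the postsynaptic density, fell without the weak array only (log2 fold change −1.66, adjusted p = 0.000997) and stood at −1.13 with all 12 mice (adjusted p = 0.0986). In the list, 1 rose and 5 fell of 29 measured in all 12 mice, with a median log2 fold change of −0.39, and 3 rose and 15 fell of 41 measured without the weak array, with a median of −0.50. The share of falls without the weak array, 15 of 41, stood against 9.61% of all genes.

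GABAergic transmission moved both ways. *Gabrd*, the delta subunit of extrasynaptic GABA receptors of granule cells, had levels of 1.25, 1.23, 0.593 and 1.28 in the 4 MRL/lpr mice and 2.71, 4.09, 4.21 and 4.1 in the 4 MRL/+ mice and fell with all 12 mice (log2 fold change −1.84 ± 0.30, adjusted p = 0.00788) and without the weak array (−1.42 ± 0.32, adjusted p = 0.0144). *Gabra2*, an alpha subunit of synaptic receptors, had 1.38, 1.15, 1.74 and 2.43 in MRL/lpr and 0.897, 0.688, 0.792 and 0.668 in MRL/+ and rose, with log2 fold changes of 1.09 with the weak array (adjusted p = 0.0293) and 0.70 without it (adjusted p = 0.0468). *Gabra5*, the alpha subunit enriched in the hippocampus, had 10-mouse levels of 6.6 and 4.62 in MRL/lpr mice 1 and 2 and 1.47, 1.51, 1.5 and 1.63 in the MRL/+ mice and log2 fold changes of 1.86 without the weak array (adjusted p = 0.000132) and −0.12 over the unfiltered spots (adjusted p = 0.976). *Slc6a13*, a GABA transporter of the meninges and vessels, rose without the weak array (log2 fold change 1.52, adjusted p = 0.014) but stood at −0.73 over the unfiltered spots (adjusted p = 0.813). In the list, 4 of 28 measured members rose and 4 fell without the weak array (median log2 fold change 0.10), and 1 of 22 rose and 2 fell with all 12 mice (median −0.34).

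Genes of the release machinery of nerve endings gave mostly falls. *Stx1a*, syntaxin 1A, the membrane SNARE of vesicle fusion, had levels of 1.36, 1.38, 0.599 and 0.617 in the 4 MRL/lpr mice and 8.55, 10.4, 8.39 and 8.2 in the 4 MRL/+ mice, and its log2 fold change was −3.28 ± 0.33 (adjusted p = 0.00064) with all 12 mice and −2.53 ± 0.21 (adjusted p = 6.46e-05) without the weak array. *Sv2a*, a vesicle glycoprotein, had 2.55, 3.27, 0.581 and 0.631 in MRL/lpr and 4.42, 9.11, 4.77 and 6.98 in MRL/+ and fell with all 12 mice (log2 fold change −2.19, adjusted p = 0.0293) and without the weak array (−0.90, adjusted p = 0.0047). *Cplx3*, a complexin that clamps the SNARE complex, had 10-mouse levels of 0.215 and 0.342 in MRL/lpr against 1.41, 1.37, 1.37 and 1.46 in MRL/+ and fell both ways (log2 fold change −2.37 without the weak array and −2.49 over the unfiltered spots of all 12 mice, adjusted p = 0.00014 and 0.019). *Doc2b*, a calcium sensor of spontaneous release, had 4.76 and 4.14 in MRL/lpr against 0.921, 1.06, 0.637 and 1.2 in MRL/+ and rose without the weak array (log2 fold change 2.25, adjusted p = 0.000985) but stood at 0.43 over the unfiltered spots (adjusted p = 0.879). *Ttc9b*, a neuronal protein outside this list, was the largest fall with all 12 mice, at 2.95, 3.09, 0.571 and 0.494 in MRL/lpr and 10.9, 17.1, 11.3 and 13.6 in MRL/+, and it fell both ways (log2 fold change −3.36 with and −1.94 without the weak array, adjusted p = 0.0081 and 5.74e-05). Over the vesicle and SNARE list, 0 rose and 8 fell of 38 measured in all 12 mice, with a median log2 fold change of −0.51, and 2 rose and 12 fell of 45 measured without the weak array, with a median of −0.21. Falls over all genes were 5.71% and 9.61%.

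Calmodulin signalling links calcium entry to synaptic plasticity. *Nrgn*, neurogranin, which holds calmodulin in dendrites, had levels of 14.4, 17.7, 6.49 and 4.12 in the 4 MRL/lpr mice and 26.4, 70.4, 44.1 and 75.9 in the 4 MRL/+ mice and fell, with log2 fold changes of −2.46 ± 0.48 with the weak array (adjusted p = 0.0146) and −1.48 ± 0.26 without it (adjusted p = 0.00482). *Camkk2*, the kinase that activates CaMKI and CaMKIV, had 3.72, 3.95, 0.878 and 0.977 in MRL/lpr and 9.45, 17.8, 9.61 and 14.3 in MRL/+ and fell with all 12 mice (log2 fold change −2.71, adjusted p = 0.0102) and without the weak array (−1.58, adjusted p = 0.000637). *Camk4*, that CaMKIV, had 10-mouse levels of 1.18 and 1.16 in MRL/lpr against 3.04, 3.39, 3 and 2.96 in MRL/+ and fell without the weak array (log2 fold change −1.40, adjusted p = 0.00233) and stood at −2.49 over the unfiltered spots (adjusted p = 0.0794). *Rcan2*, a regulator of calcineurin, fell with all 12 mice only (log2 fold change −1.88, adjusted p = 0.0301) and stood at −0.76 without the weak array (adjusted p = 0.0853), and *Ppp3cb*, a catalytic subunit of calcineurin, rose without the weak array only (log2 fold change 1.26, adjusted p = 0.019) and stood at 0.38 with all 12 mice (adjusted p = 0.467). In the list, 2 of 26 measured members rose and 4 fell without the weak array (median log2 fold change −0.13), and 0 of 24 rose and 4 fell with all 12 mice (median −0.46).

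Of the voltage-gated channels, 3 rose and 11 fell of 39 measured in all 12 mice, with a median log2 fold change of −0.33, and 3 rose and 18 fell of 53 measured without the weak array, with a median of −0.47, beside falls among 5.71% and 9.61% of all genes. *Kcnip3*, a potassium channel partner that is also the transcription factor DREAM, had 3.42, 4.33, 1.2 and 0.859 in MRL/lpr and 6.3, 7.11, 5.8 and 7.52 in MRL/+ and fell both ways (log2 fold change −1.75 with and −0.63 without the weak array, adjusted p = 0.0381 and 0.0446). *Cacna1h*, a T-type calcium channel, rose with all 12 mice only (log2 fold change 1.98, adjusted p = 0.0328) and stood at 0.87 without the weak array (adjusted p = 0.0607), and its probes disagreed in sign. In the cholinergic list, 0 of 8 measured members were called with all 12 mice (median log2 fold change −0.02), and 1 rose and 4 fell of 19 without the weak array (median −0.43). The largest fall was that of *Chrm3*, a muscarinic receptor, with log2 fold changes of 0.31 with and −1.02 without the weak array (adjusted p = 0.754 and 0.02), and mice 3 and 4 read 0.696 and 0.843 where mice 1 and 2 read 0.093 and 0.101. The single rise was that of *Chrm2*, a muscarinic receptor, with log2 fold changes of 0.96 without the weak array and −0.01 over the unfiltered spots (adjusted p = 0.0287 and 0.998). In the dopaminergic list, 1 of 25 measured members rose and 1 fell without the weak array (median log2 fold change −0.20), and 0 of 20 rose and 1 fell with all 12 mice (median 0.15), with *Adcy5*, an adenylyl cyclase of the striatum, at a log2 fold change of −1.19 with and −0.66 without the weak array (adjusted p = 0.0366 and 0.111). In the serotonergic list 0 of 8 measured members rose and 2 fell without the weak array (median log2 fold change −0.35), and 1 of 3 rose and 0 fell with all 12 mice (median 1.34). The falls were those of *Htr2a* and *Htr6*, receptors of serotonin, with log2 fold changes of −0.07 with and −1.91 without the weak array (adjusted p = 0.968 and 0.00854) for *Htr2a*, which was well above background in 1 MRL/lpr mouse, and of 1.94 with and −1.72 without it (adjusted p = 0.403 and 0.00955) for *Htr6*. In MRL/+ mice 2 and 4 both were within unspecific signal. *Htr2c*, a receptor that choroid plexus also makes, rose with all 12 mice only (log2 fold change 1.34, adjusted p = 0.0379) and stood at 1.11 without the weak array (adjusted p = 0.055).

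Activity-induced genes varied between mice of 1 strain. *Arc*, a plasticity protein induced by firing, had levels of 8.01, 5.77, 0.934 and 1.03 in the 4 MRL/lpr mice and 9.75, 43.8, 20.3 and 18.9 in the 4 MRL/+ mice. The MRL/+ mice themselves ran from 9.75 to 43.8. The log2 fold change of *Arc* was −2.96 ± 0.71 (adjusted p = 0.03) with all 12 mice and −1.40 ± 0.44 (adjusted p = 0.0555) without the weak array, past the threshold only with the weak array. *Egr1*, an immediate early transcription factor, fell with all 12 mice only (log2 fold change −1.77, adjusted p = 0.0488) and stood at −0.79 without the weak array (adjusted p = 0.229). *Fosb*, a partner of Jun proteins, had 0.297, 0.388, 0.537 and 0.504 in MRL/lpr and 0.627, 1.37, 0.989 and 0.843 in MRL/+ and fell, with log2 fold changes of −1.13 with the weak array (adjusted p = 0.0417) and −1.28 without it (adjusted p = 0.0137). *Nptx2*, a secreted pentraxin that gathers AMPA receptors, had 10-mouse levels of 0.745 and 0.806 in MRL/lpr mice 1 and 2 and 4.01, 5.22, 4.36 and 4.46 in the MRL/+ mice and fell both ways (log2 fold change −2.53 ± 0.18 without the weak array and −3.45 over the unfiltered spots of all 12 mice, adjusted p = 2.92e-05 and 0.0201). *Fosl2*, a related transcription factor, rose with all 12 mice (log2 fold change 1.69, adjusted p = 0.026) and without the weak array (1.30, adjusted p = 0.0454). Over the list, 1 rose and 3 fell of 16 measured in all 12 mice, with a median log2 fold change of −0.36, and 2 rose and 4 fell of 24 measured without the weak array, with a median of −0.32.

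Every clock gene that was called fell. *Dbp*, a transcription factor driven by the clock, had levels of 2.85, 2.48, 3.47 and 2.35 in MRL/lpr and 5.73, 4.08, 6.03 and 4.16 in MRL/+ and fell both ways (log2 fold change −0.84 with and −0.72 without the weak array, adjusted p = 0.0293 and 0.0456). Its fall was carried by a probe at −1.35 with and −1.22 without the weak array, while another probe gave −0.16 and −0.06. *Hlf*, a relative of *Dbp*, had 1.49, 1.55, 1.54 and 1.32 in MRL/lpr and 4.45, 2.68, 2.99 and 3 in MRL/+ and fell, with log2 fold changes of −1.12 with the weak array (adjusted p = 0.0121) and −0.92 without it (adjusted p = 0.0345), and for both genes the strains did not overlap. *Nr1d1*, the repressor REV-ERB alpha, had 10-mouse levels of 1.43 and 1.1 in MRL/lpr against 4.47, 5.17, 6.42 and 4.08 in MRL/+ and fell both ways (log2 fold change −1.98 without the weak array and −2.73 over the unfiltered spots of all 12 mice, adjusted p = 0.00106 and 0.0372). Over the list, 0 of 18 measured members rose and 5 fell without the weak array (median log2 fold change −0.40), and 0 of 8 rose and 3 fell with all 12 mice (median −0.87). Falls over all genes were 9.61% and 5.71%. *Csnk1e*, a kinase that sets the pace of the clock, fell with all 12 mice only (log2 fold change −0.91, adjusted p = 0.0368) and stood at −0.43 without the weak array (adjusted p = 0.164). The hour of sacrifice is not given in the sources used here, and its part was not tested.

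Cholesterol in the brain is made by its own cells and leaves as a hydroxylated form. *Cyp46a1*, the neuronal enzyme of that export, had levels of 0.233, 0.325, 0.414 and 0.531 in the 4 MRL/lpr mice and 1.18, 1.21, 1.28 and 1.4 in the 4 MRL/+ mice and fell with all 12 mice (log2 fold change −1.81 ± 0.27, adjusted p = 0.00431) and without the weak array (−2.04 ± 0.22, adjusted p = 0.000292). *Lrp1*, a receptor for lipoproteins, had 2.93, 2.22, 0.366 and 0.496 in MRL/lpr and 4.88, 6.15, 4.46 and 5.69 in MRL/+ and fell, with log2 fold changes of −2.33 with the weak array (adjusted p = 0.0351) and −0.88 without it (adjusted p = 0.0122). *Srebf2*, the master transcription factor of synthesis, had a log2 fold change of 0.00 with and −0.99 without the weak array (adjusted p = 0.999 and 0.00501). The strains did not overlap for *Cyp46a1* and *Lrp1*. Over the list, 0 rose and 3 fell of 18 measured in all 12 mice, with a median log2 fold change of −0.24, and 0 rose and 5 fell of 26 measured without the weak array, with a median of −0.27. Falls over all genes were 5.71% and 9.61%.

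Cytoskeleton genes of axons and dendrites fell in all calls but 1. *Stmn1*, stathmin, a tubulin-binding protein, had 6.66, 8.61, 1.91 and 2.01 in MRL/lpr and 15.1, 23.5, 19 and 23.8 in MRL/+ and fell with all 12 mice (log2 fold change −2.38, adjusted p = 0.0141) and without the weak array (−1.24, adjusted p = 0.00104). *Tubb4a*, a tubulin of mature neurons and myelinating cells, had 1.79, 2.05, 0.274 and 0.46 in MRL/lpr and 4.4, 5.75, 4.65 and 4.73 in MRL/+ and fell both ways (log2 fold change −2.56 with and −1.18 without the weak array, adjusted p = 0.0219 and 0.00217), and *Dync1h1*, the dynein heavy chain, fell, with log2 fold changes of −1.90 with the weak array (adjusted p = 0.045) and −0.59 without it (adjusted p = 0.0299). *Tubb2b*, a tubulin of young neurons, was the exception and rose with all 12 mice (log2 fold change 1.20, adjusted p = 0.0351) and without the weak array (0.91, adjusted p = 0.0334). Over the list, 1 rose and 4 fell of 35 measured in all 12 mice, with a median log2 fold change of −0.77, and 1 rose and 6 fell of 37 measured without the weak array, with a median of −0.10. Falls over all genes were 5.71% and 9.61%. *Map1a*, a microtubule-associated protein of mature dendrites, fell without the weak array (log2 fold change −1.47, adjusted p = 0.000301) and stood at −3.0 over the unfiltered spots (adjusted p = 0.0872). In the list of neurogenesis and proliferation, 2 of 17 measured members rose and 3 fell without the weak array (median log2 fold change 0.23), and 1 of 6 rose and 2 fell with all 12 mice (median −0.11). In it *Dcx*, the marker of new neurons, fell without the weak array (log2 fold change −0.81, adjusted p = 0.0463) and stood at −0.79 over the unfiltered spots (adjusted p = 0.289). *Nes*, nestin, fell both ways (log2 fold change −1.26 with and −1.56 without the weak array, adjusted p = 0.0471 and 0.00145). *Mcm6*, a helicase subunit of DNA replication, rose without the weak array (log2 fold change 1.27, adjusted p = 0.000808) but stood at −0.25 over the unfiltered spots (adjusted p = 0.932), and *Mcm4*, another, rose, with log2 fold changes of 1.13 with the weak array (adjusted p = 0.0473) and 0.88 without it (adjusted p = 0.0338).

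PI3K-AKT signalling carries survival signals from growth factor receptors. *Akt2*, an AKT kinase, had levels of 1.41, 1.49, 0.624 and 0.736 in the 4 MRL/lpr mice and 2.04, 3.2, 2.07 and 2.6 in the 4 MRL/+ mice. It fell with all 12 mice (log2 fold change −1.30 ± 0.31, adjusted p = 0.0293) and without the weak array (−0.60 ± 0.18, adjusted p = 0.0437). *Akt1* had a log2 fold change of −1.05 with and 0.08 without the weak array (adjusted p = 0.121 and 0.795). *Pik3r1*, the regulatory subunit p85 alpha of PI3K, had 10-mouse levels of 0.364 and 0.671 in MRL/lpr mice 1 and 2 and 2.24, 2.26, 1.38 and 1.81 in the MRL/+ mice and fell both ways (log2 fold change −1.93 ± 0.25 without the weak array and −2.44 over the unfiltered spots of all 12 mice, adjusted p = 0.000887 and 0.0418). *Cdkn1a*, the cell cycle inhibitor p21, fell without the weak array (log2 fold change −1.52, adjusted p = 0.00704) and stood at −1.42 over the unfiltered spots (adjusted p = 0.112), and *Tsc1*, which restrains mTOR, fell with all 12 mice only (log2 fold change −1.13, adjusted p = 0.0336) and stood at −0.51 without the weak array (adjusted p = 0.112). *Mlst8*, a subunit of both mTOR complexes, rose with all 12 mice only (log2 fold change 0.97, adjusted p = 0.0457) and stood at 0.78 without the weak array (adjusted p = 0.109). Of the 71 genes of the pathway list, 1 rose and 2 fell of 51 measured in all 12 mice, with a median log2 fold change of −0.26, and 3 rose and 9 fell of 69 measured without the weak array, with a median of −0.08, so the falls without the weak array, 9 of 69, stood beside 9.61% of all genes. The list of neurotrophins and their receptors, which feed this pathway, held these calls: 0 rose and 1 fell of 8 measured in all 12 mice, with a median log2 fold change of 0.24, and 1 rose and 0 fell of 13 measured without the weak array, with a median of 0.07. *Gfra2*, the receptor of neurturin, fell with all 12 mice only (log2 fold change −1.60, adjusted p = 0.022) and stood at −1.07 without the weak array (adjusted p = 0.109), and *Ntf3*, neurotrophin 3, rose without the weak array (log2 fold change 1.62, adjusted p = 0.025) but stood at 0.51 over the unfiltered spots (adjusted p = 0.734). Among the BCL2 family and caspases, 1 of 23 measured members rose and 2 fell without the weak array (median log2 fold change −0.18), and 1 of 13 rose and 0 fell with all 12 mice (median −0.30). *Bcl2*, which keeps cells alive, had 10-mouse levels of 0.624 and 0.649 in MRL/lpr against 1.28, 2.3, 1.36 and 2.09 in MRL/+ and fell without the weak array (log2 fold change −1.42, adjusted p = 0.00128) and stood at −1.76 over the unfiltered spots (adjusted p = 0.0525), and *Casp9*, the caspase of the mitochondrial pathway, fell without the weak array only (log2 fold change −0.72, adjusted p = 0.0191) and stood at −0.80 with all 12 mice (adjusted p = 0.0604).

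Chaperones gave more rises than falls. *Hspa1a*, the inducible HSP70, had levels of 0.467, 0.263, 2.15 and 2.27 in the 4 MRL/lpr mice and 0.177, 0.14, 0.221 and 0.124 in the 4 MRL/+ mice and rose both ways (log2 fold change 2.44 ± 0.61 with and 1.28 ± 0.19 without the weak array, adjusted p = 0.0336 and 0.00164). *Hspa12a*, an HSP70 relative, had 0.977, 1.08, 2.15 and 2.61 in MRL/lpr and 0.509, 0.522, 0.625 and 0.767 in MRL/+ and rose, with log2 fold changes of 1.39 with the weak array (adjusted p = 0.0324) and 0.95 without it (adjusted p = 0.0423), and *Dnajc1*, a co-chaperone of the endoplasmic reticulum, rose with all 12 mice (log2 fold change 1.09, adjusted p = 0.0269) and without the weak array (1.16, adjusted p = 0.00931). *Hspb3*, a small heat shock protein, had 10-mouse levels of 0.182 and 0.21 in MRL/lpr against 0.966, 0.96, 1.13 and 0.975 in MRL/+ and fell both ways (log2 fold change −2.36 without the weak array and −2.48 over the unfiltered spots of all 12 mice, adjusted p = 0.000847 and 0.023). Over the list, 4 rose and 0 fell of 32 measured in all 12 mice, with a median log2 fold change of −0.05, and 8 rose and 3 fell of 45 measured without the weak array, with a median of 0.34. Rises over all genes were 3.46% and 6.11%. Among glucocorticoid targets, 2 of 19 measured members rose and 1 fell without the weak array (median log2 fold change 0.23), and 1 of 13 rose and 0 fell with all 12 mice (median −0.58). *Hsd11b1*, which reactivates corticosterone inside cells, had 0.759, 0.662, 0.678 and 0.616 in MRL/lpr and 0.302, 0.4, 0.323 and 0.417 in MRL/+ and rose both ways (log2 fold change 0.92 with and 1.19 without the weak array, adjusted p = 0.0293 and 0.000666), and *Errfi1*, an inhibitor of EGF receptors, rose without the weak array (log2 fold change 1.02, adjusted p = 0.0114) but stood at −1.37 over the unfiltered spots (adjusted p = 0.555). Among genes of peroxide and glutathione defence, 3 of 33 measured members rose and 0 fell without the weak array (median log2 fold change 0.13), and 0 of 23 rose and 0 fell with all 12 mice (median 0.04). *Nfe2l2*, the transcription factor NRF2, rose without the weak array (log2 fold change 1.18, adjusted p = 0.00133) but stood at 0.42 over the unfiltered spots (adjusted p = 0.777), and *Gsta4*, a glutathione transferase, rose without the weak array only (log2 fold change 0.66, adjusted p = 0.0274) and stood at 0.44 with all 12 mice (adjusted p = 0.268).

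For lists of genes that every cell uses the median was below 0 with all 12 mice and, except for glycolysis, above 0 without the weak array. Median log2 fold changes were −0.75 with all 12 mice and 0.15 without the weak array for the mitochondrial respiratory chain, −0.66 with all 12 mice and 0.25 without the weak array for cytosolic ribosomal proteins, −0.54 with all 12 mice and 0.17 without the weak array for the proteasome and −0.93 with all 12 mice and −0.09 without the weak array for glycolysis. The median over all genes was −0.01 and −0.10. Among 75 respiratory chain genes 0 were called without the weak array and 1 of 73 fell with it, *Uqcrc1*, a core subunit of complex III, with log2 fold changes of −1.25 with and −0.49 without the weak array (adjusted p = 0.0375 and 0.0862). Of the proteasome 0 of 30 members were called without the weak array and 1 of 28 rose with it, *Psmd14*, a deubiquitinase of its lid, at a log2 fold change of 1.78 with and 1.21 without the weak array (adjusted p = 0.0363 and 0.0897). Of the ribosomal proteins 8 of 78 rose without the weak array and 0 of 76 with it, and *Rps21* rose without the weak array only (log2 fold change 2.02, adjusted p = 0.00894) and stood at 1.28 with all 12 mice (adjusted p = 0.0548). *Aldoa*, aldolase A of glycolysis, was at a log2 fold change of −0.50 with and 0.10 without the weak array (adjusted p = 0.292 and 0.656).

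**Figure D4:**
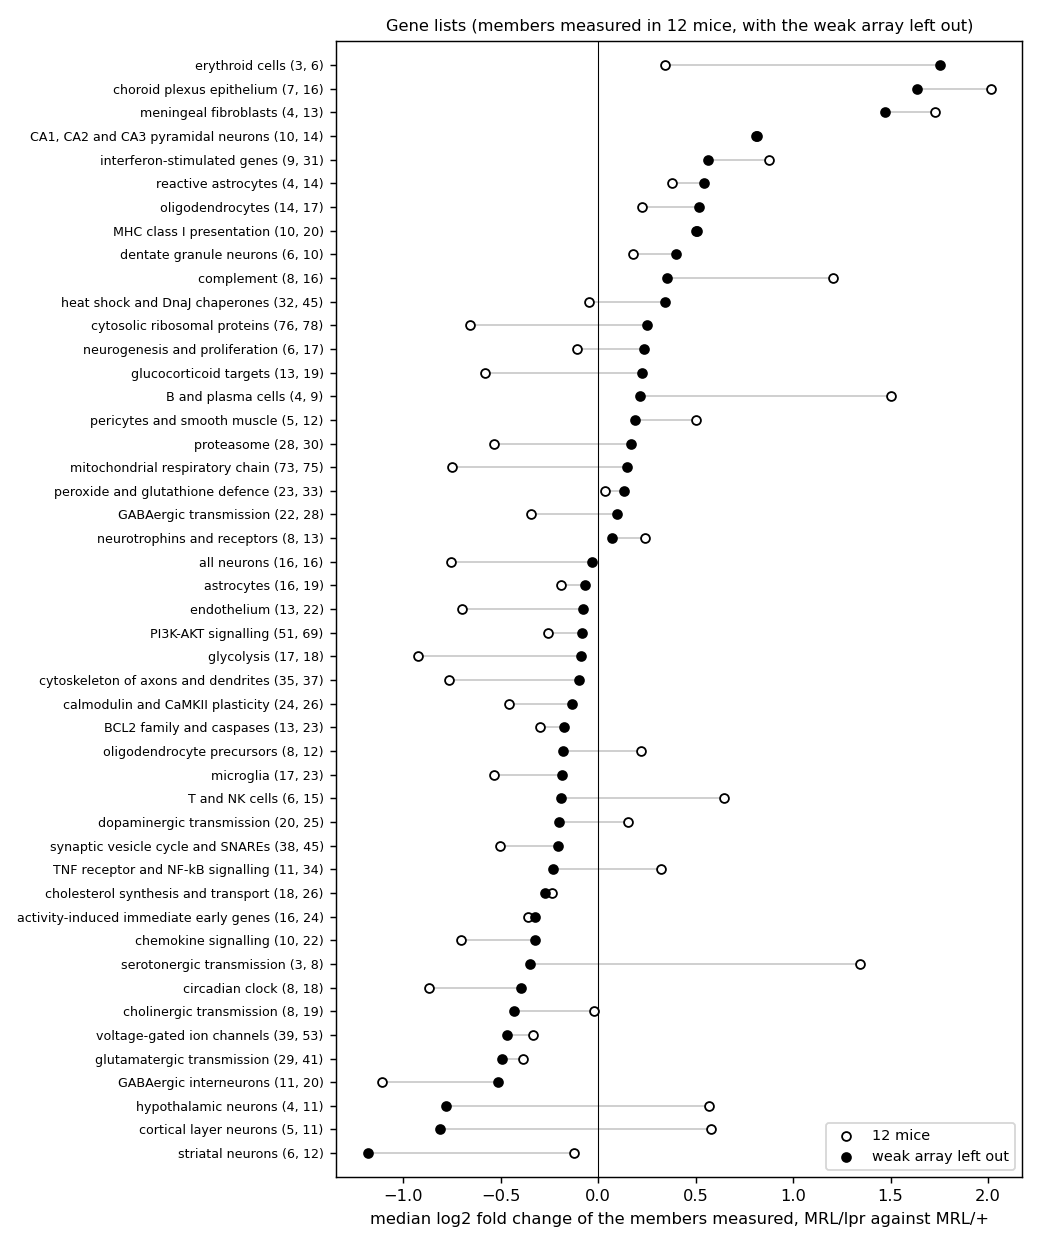
Median log2 fold change between MRL/lpr and MRL/+ of the measured members of each gene list, over all 12 mice (open circles) and without the weak array (filled circles), with the 2 numbers of measured members in parentheses and a line joining each pair. Choroid plexus and meningeal lists lie on the right in both, and glutamatergic, channel and interneuron lists on the left, while respiratory chain and ribosomal lists change sign.

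Beyond the lists, the rule for the 10 largest rises and falls that hold both ways named a few more genes. *Lefty1*, a TGF-beta family inhibitor, had 0.338, 0.642, 0.285 and 0.425 in MRL/lpr and 0.044, 0.122, 0.0329 and 0.0968 in MRL/+ and rose with all 12 mice (log2 fold change 2.65, adjusted p = 0.0141) and without the weak array (3.02, adjusted p = 9.56e-05). *Rd3l* had 0.14, 0.273, 3.28 and 8.21 in MRL/lpr and 0.0113, 0.0914, 0.0125 and 0.09 in MRL/+, highest on the weak array, and rose both ways (log2 fold change 4.94 with and 2.74 without the weak array, adjusted p = 0.0324 and 0.0103). *Cobl*, an actin nucleator of dendrite branching, had 0.121, 0.223, 0.342 and 0.471 in MRL/lpr and 1.77, 1.75, 1.68 and 1.92 in MRL/+ and fell, with log2 fold changes of −2.79 ± 0.33 with the weak array (adjusted p = 0.00205) and −3.24 ± 0.24 without it (adjusted p = 3.57e-05). *Necab3*, a calcium-binding protein, had 0.658, 0.698, 0.457 and 0.486 in MRL/lpr and 3.36, 2.76, 3.26 and 4.18 in MRL/+ and fell with all 12 mice (log2 fold change −2.57, adjusted p = 0.000285) and without the weak array (−2.14, adjusted p = 0.000385). *Atxn7l3*, a subunit of a histone deubiquitinase, had 0.309, 0.328, 0.208 and 1.17 in MRL/lpr and 1.33, 1.94, 1.19 and 1.5 in MRL/+ and fell both ways (log2 fold change −1.89 with and −2.04 without the weak array, adjusted p = 0.02 and 4.37e-05). *Inafm2* fell, with log2 fold changes of −2.15 with the weak array (adjusted p = 0.0141) and −2.79 without it (adjusted p = 2.87e-05), and *Tmem253* and *Gm5859* fell with log2 fold changes of −2.22 with and −2.87 without the weak array (adjusted p = 0.0141 and 4.72e-05) and of −2.07 with and −1.97 without the weak array (adjusted p = 0.00205 and 0.000985). Of the genes named in the text, *Shisa6*, *Lamp5*, *Stx1a*, *Cacng3*, *Necab3* and *Cobl* stayed past the threshold with the array as a random block, at adjusted p of 0.0142, 0.0142, 0.0142, 0.0156, 0.0192 and 0.0441.

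**Figure D5:**
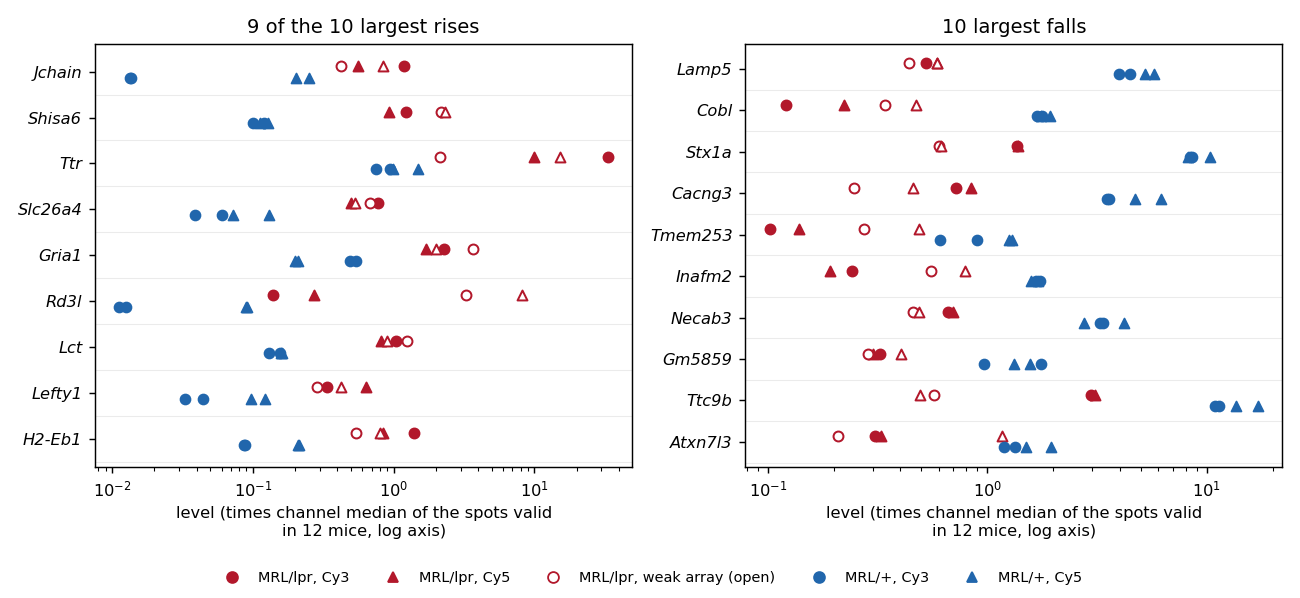
Levels of 9 of the 10 largest rises (left) and of the 10 largest falls (right) that held with and without the weak array, in multiples of the channel median on a log axis, with 1 point per mouse, 4 MRL/lpr (red, open on the weak array) and 4 MRL/+ (blue). No gene overlaps between the strains, which the rule for choosing them required, and *Ttr* and *Rd3l* spread most among the MRL/lpr mice, from 2.13 to 33.4 and from 0.140 to 8.21.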

How the data were processed

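Hippocampal RNA of 12 mice was hybridised by the authors to 6 two-colour Agilent mouse arrays of 60-base probes, and each channel is 1 mouse. The authors deposited scanner output of Agilent Feature Extraction: mean spot intensity and local background intensity per channel, not yet normalized, with probe positions on mm9 per the file headers. Replicates were not pooled. Precision is limited by 4 mice a strain and by the weak array.

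Background medians were subtracted and each channel was divided by its median. Control spots and outlier flags were left out, and a spot had to reach 2 times its background in every sample (10877 spots, 10201 probes and 8864 genes with 12 mice; 25621 spots and 17936 genes without the weak array, which removed 57.5% of those spots). Spots of a gene were averaged, and limma 3.58.1 (R 4.3.3, lmFit and eBayes with trend) was fitted to their log2 values over all 3 groups with dye as covariate, and p-values were adjusted over all genes by Benjamini-Hochberg (threshold 0.05). Probes of a gene that differ in sign are stated, and 23 of the 117 named genes measured in both ways had more valid probes without the weak array. The code was tested on simulated data.

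The mice and the 50 gene lists were chosen with earlier results of these data known. Of 1329 list symbols 1325 were matched, 16 of them by synonym or accession. Genes were named by rule: the 10 largest rises and the 10 largest falls with a symbol that were called in both fits without overlap, per list up to 3 members called with all 12 mice and up to 2 more called without the weak array, or the member of highest level, and a few genes of the mutation, the TWEAK and AKT pathways and the tissue check, and some genes that the rule names are left out for dim or disagreeing probes or for length. A few other genes of the rule are not reported here. The 3 genes given by transcript identifier and the 8 genes of the closing observations were added after their values were seen. Alternatives covered background, normalization, filters, weights, dye, blocks and left-out mice.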

Additional observations from a re-analysis of the deposited data

Results flagged for a closer look

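In 8 of 286 groups of 4 mice (2.8%), 1 mouse stood apart from the other 3 by Dixon's test at its 95% level, which chance gives in about 5% of groups. The level of *Lct* was 0.13 in MRL/+ mouse 1, with the others at 0.156 to 0.16. *Stx1a* read 10.4 in MRL/+ mouse 2 and 8.2 to 8.55 in the others. *Rasd2* read 5.72 in MRL/+ mouse 4 and 4.11 to 4.36 in the others. *Hspb3* read 1.13 in MRL/+ mouse 3 on the 10-mouse scale and 0.96 to 0.975 in the others. *Gabrd* stood apart in both strains, at 2.71 in MRL/+ mouse 1, with the others at 4.09 to 4.21, and at 0.593 in MRL/lpr mouse 3, with the others at 1.23 to 1.28. In MRL/lpr mouse 4 of the weak array, *Atxn7l3* read 1.17 where the others lay between 0.208 and 0.328, and *Cacna1h* read 2.57 where they lay between 0.432 and 0.679. The strains did not overlap for *Lct*, *Stx1a*, *Rasd2*, *Gabrd*, *Hspb3* and *Atxn7l3* even with these mice, where *Hspb3* had 2 MRL/lpr mice on its scale. They overlapped for *Cacna1h*.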

How the results depend on the processing

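With 4 mice a strain, 2 of them on a weak array, single calls are uncertain. The count of 813 genes changed by over 1.5 times under most settings, and where no construction is named the cause was not tested. Without the weak array it was 1608 on the same genes and 2818 with spots filtered again over more genes. It was 7 with the array as a random block (1450 at an unadjusted p under 0.05), 38 with only the 8 mice compared, 449 with quantile normalization, 294 without a filter on dim spots, 483 with spots well above background in all samples and 1450 with array quality weights. With the Cy3 mice only or the Cy5 mice only, limma called 0 genes, compared with 667 and 1709 at an unadjusted p under 0.05. The methods' test gave 1403 genes at an unadjusted p under 0.05, 424 of them (101 higher, 323 lower) also past the methods' fold criterion, and 0 after Benjamini-Hochberg. Leaving out 1 mouse gave 126 to 3467: without MRL/lpr mice 1 to 4 the counts were 3334, 3467, 298 and 435, and without MRL/+ mice 1 to 4 they were 276, 149, 214 and 126. The share of higher calls was 37.8%, compared with 60.9% without a filter, 47.6% with spots well above background, 52.3% over negative controls, 20.7% and 23.8% in the methods' test without and with the fold criterion, and 19.8% with neither filter nor weak array. Settings chosen after seeing the data gave 388 genes over the negative-control background, 1412 over it without the weak array, 5135 with the array as a block and no weak array, and 10272 with neither filter nor weak array. With normexp, the Agilent processed signal, log2 means, no trend or no dye term the count stayed between 548 and 1197.

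The replicate numbers were not taken to pair the mice, since the deviations of same-numbered mice correlated at 0.44, −0.40, −0.35 and 0.38. With the replicate block in place of the dye the count was 505, of which 174 were higher and 331 lower.

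Of 3253 values of the 171 named genes under the alternatives, 2132 kept their direction and side of the threshold, 868 kept the direction and lost the call, 150 kept it and gained one, and 103 had the opposite sign, of which 78 were past the threshold in neither way. The log2 fold changes of these 103 follow by setting. Without a filter on dim spots the values were −0.0727 for *Dock10*, −0.20 for *Serpina3n*, −1.41 for *Vim*, −0.00667 for *Mal*, −0.32 for *Ugt8a*, −0.34 for *Mgp*, −0.35 for *Cd6*, −0.12 for *Gabra5*, −0.73 for *Slc6a13*, −0.00768 for *Chrm2*, −0.16 for *Ppp3cb*, −0.25 for *Mcm6*, −0.40 for *Gsta4*, −1.37 for *Errfi1*, −0.52 for *Mbp* and −0.23 for *Chrm3*. Without the weak array on the same genes the values were 0.76 for *Gjb6*, −0.62 for *Cd6*, −0.0446 for *Tnfsf12*, 0.36 for *Wfs1*, −0.18 for *Mbp*, −1.18 for *Chrm3* and −1.88 for *Htr6*. Without the weak array with spots filtered again, both with and without the array block the values were 0.92 for *Gjb6*, −2.37 for *Cd6*, 0.10 for *Aldoa*, −0.24 for *Tnfsf12*, 0.0831 for *Akt1*, 0.53 for *Wfs1*, −0.0454 for *Mbp*, 0.0742 for *Cldn5*, −1.02 for *Chrm3* and −1.72 for *Htr6*. With the Cy3 mice only the values were 0.15 for *Gjb6*, 0.21 for *Tcf7l2*, 0.16 for *Srebf2*, −0.11 for *Mbp* and 0.26 for *Htr2a*. With spots well above background in all samples the values were 0.0887 for *Gjb6* and 0.97 for *Cdkn1a*. With array quality weights the values were 0.87 for *Gjb6*, −0.30 for *Cd6*, −0.0357 for *Tnfsf12*, 0.28 for *Wfs1*, −0.21 for *Mbp*, −1.0004 for *Chrm3* and −1.42 for *Htr6*. Over negative controls without the weak array the values were 0.87 for *Gjb6*, 0.0513 for *Tnfrsf12a*, 0.43 for *Wfs1*, −0.0413 for *Mbp* and 0.0148 for *Cldn5*. With neither filter nor weak array the values were 1.07 for *Gjb6*, −2.22 for *Cd6*, 0.25 for *Aldoa*, −0.0904 for *Tnfsf12*, 0.23 for *Akt1*, 0.68 for *Wfs1*, 0.0401 for *Pcp4*, 0.22 for *Cldn5*, −0.87 for *Chrm3* and −1.44 for *Htr6*. With the Agilent processed signal the values were −0.20 for *Myl9*, −0.0222 for *Rps21*, 0.45 for *Srebf2*, 0.21 for *Aldoa*, −0.24 for *Mbp* and 0.43 for *Htr2a*. With normexp the values were 0.12 for *Tcf7l2*, 0.31 for *Srebf2*, −0.0763 for *Mbp* and 0.44 for *Htr2a*. With quantile normalization the values were −0.22 for *C4b* and −0.30 for *Gsta4*. With log2 means the values were −0.13 for *Mbp*. With 1 mouse left out at a time, the genes that changed sign ran from −0.51 to 0.28 for *Gjb6*, −0.025 to 1.01 for *Acta2*, −0.0313 to 1.21 for *Hbb-b2*, −0.34 to 0.29 for *Tcf7l2*, −0.38 to 0.40 for *Srebf2*, −0.0821 to 0.16 for *Mbp*, −0.25 to 0.90 for *Chrm3* and −0.90 to 0.79 for *Htr2a*. Of 1305 medians of gene lists under the alternatives, 192 moved beyond the spread and 162 changed sign.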

Other observations

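Outside the gene lists lay the 6 largest falls without the weak array among genes with a symbol, each measured by 1 probe. They were chosen after their values had been seen, and none passed the spot filter over all 12 mice. *Dkkl1*, a secreted protein related to the dickkopf family, had 10-mouse levels of 0.288 and 0.361 in MRL/lpr mice 1 and 2 and 9.31, 8.84, 11.9 and 7.61 in the MRL/+ mice. It fell both ways (log2 fold change −4.85 ± 0.25 without the weak array and −4.68 over the unfiltered spots of all 12 mice, adjusted p = 1.01e-05 and 0.00139). *Adgrg3*, an adhesion receptor, had 0.0886 and 0.129 in MRL/lpr against 2.04, 2.71, 2.29 and 4 in MRL/+ and fell both ways (log2 fold change −4.64 without the weak array and −3.67 over the unfiltered spots of all 12 mice, adjusted p = 1.62e-05 and 0.00847). *Tcap*, titin-cap of the muscle sarcomere, had 0.249 and 0.324 in MRL/lpr against 3.77, 3.97, 4.64 and 3.3 in MRL/+ and fell both ways (log2 fold change −3.78 without the weak array and −3.46 over the unfiltered spots of all 12 mice, adjusted p = 2.87e-05 and 0.00553). *Myl4*, a myosin light chain, had 0.761 and 0.61 in MRL/lpr against 9.22, 8.15, 9.62 and 8.42 in MRL/+ and fell both ways (log2 fold change −3.70 without the weak array and −4.25 over the unfiltered spots of all 12 mice, adjusted p = 2.01e-05 and 0.00547). *Rasgef1c*, an exchange factor of small GTPases, had 0.564 and 0.706 in MRL/lpr against 8.27, 7.75, 8.99 and 7.68 in MRL/+ and fell both ways (log2 fold change −3.69 without the weak array and −3.90 over the unfiltered spots of all 12 mice, adjusted p = 2.01e-05 and 0.00553), and *Olfm2*, a secreted olfactomedin, had 0.273 and 0.484 in MRL/lpr against 4.52, 3.36, 5.11 and 4.1 in MRL/+ and fell both ways (log2 fold change −3.54 without the weak array and −3.59 over the unfiltered spots of all 12 mice, adjusted p = 4.07e-05 and 0.00993). Each was well above background in mice 1 and 2 of MRL/lpr and in all 4 MRL/+ mice, and both MRL/lpr mice lay below every MRL/+ mouse. Their falls over unfiltered spots include the low readings of bright genes on the weak array and are not separate support.

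A pair of genes that rose, also outside the lists and chosen after their values had been seen, were *Pcdh20* and *Npy2r*. *Pcdh20*, a protocadherin, had 10-mouse levels of 16.9 and 15.8 in MRL/lpr mice 1 and 2 and 1.58, 1.49, 1.3 and 1.43 in the MRL/+ mice. It was well above background in 4 MRL/lpr and 4 MRL/+ mice, and it rose both ways (log2 fold change 2.43 ± 0.45 with and 3.50 ± 0.22 without the weak array, adjusted p = 0.0115 and 2.01e-05). *Npy2r*, the Y2 receptor of neuropeptide Y, had 1.92 and 4.65 in MRL/lpr against 0.108, 0.305, 0.134 and 0.441 in MRL/+, was well above background in 2 MRL/lpr and 2 MRL/+ mice and rose without the weak array (log2 fold change 3.83, adjusted p = 0.00415) and stood at 1.96 over the unfiltered spots (adjusted p = 0.278).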
